A study of Mus musculus with 40 samples.

Results

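Liver mRNA for the enzymes that turn cholesterol into bile acids was examined in mice given GenX, a fluorinated processing aid of the PFAS class, for 90 days. The members are 8 genes, Cyp7a1, Cyp7b1, Cyp8b1, Cyp27a1, Cyp39a1, Hsd3b7, Akr1d1 and Baat, taken by symbol from the 21448 gene symbols of the deposited counts. They have 10 of its 30146 probes, and all 10 probes passed the filter on low counts. Wild-type Crl:CD1(ICR) mice received GenX by gavage in deionized water at 0.1 mg/kg, 0.5 mg/kg or 5 mg/kg of body weight per day, or the water alone as controls (0 mg/kg). From the larger dosed groups, the first 5 males and 5 females by animal number were sequenced per dose. The age of the mice is not given in the labels. RNA was measured with TempO-Seq in scrapings of formalin-fixed, paraffin-embedded liver sections, an assay in which neighboring DNA probes are joined on their target and sequenced. The library of mouse 355, a female at 0.5 mg/kg, had too few reads and was left out, so that group has 4 mice and 39 libraries were fitted.

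Bile acids are made from cholesterol in hepatocytes by a classic route, which starts with Cyp7a1, and by an alternative route, which starts with Cyp27a1 and continues with Cyp7b1. The routes meet in shared steps on the steroid ring and the side chain, and the finished acids are joined to taurine or glycine before they leave the cell. Bile acids limit their own synthesis through the receptor FXR (Nr1h4), its target SHP (Nr0b2) and an intestinal hormone read by Fgfr4 and Klb, while HNF4α and Nr5a2 maintain the genes. Cyp7b1 is known for higher expression in male than in female mouse liver.

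The values are CPM, a probe's reads scaled to a common library size (TMM), and so are shares of a library and not amounts per cell. In tissue RNA, fewer cells of a type and less RNA in each cell cannot be told apart. A gene was called at an adjusted p below 10% from edgeR's quasi-likelihood test, fitted over all probes. Counts of called genes over the whole table use the most counted probe of each of 12412 tested genes. The kept libraries held 10341341 to 15562253 reads. By the position of the highest peak of the smoothed low counts, these reads were estimated to stand for 287727 to 655905 captured molecules. The estimate was 483549 to 655905 in males at 5 mg/kg and 287727 to 369710 in male controls. Whether this difference bears on the results was not tested. The 4 Y-linked genes had no read in the kept female libraries and were read in all males. Among hepatocyte markers, the summed level of Alb, Apoa1, Ttr, Serpina1a and Hnf4a was 14979.8 to 39564.6 CPM over the 39 libraries, and none of these 5 markers was at 0 throughout a group.

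In males at 5 mg/kg, 5 of the 8 enzymes fell against male controls and none rose. These were Cyp7b1, Akr1d1, Cyp8b1, Cyp27a1 and Hsd3b7, which include steps of the classic, the alternative and the shared part of the pathway. Over all tested genes, 9.35% were called in this comparison and 3.75% were called lower. In females at 5 mg/kg, Cyp27a1 alone passed the test, also lower, where 4.09% of all genes were called and 2% were called lower. At 0.1 and 0.5 mg/kg no member was called in either sex. With the library of mouse 355 kept, the calls of Cyp8b1, Cyp27a1 and Hsd3b7 in males (adjusted p = 0.223, 0.104 and 0.122) and of Cyp27a1 in females (0.203) were lost. The median log2 fold change of the members in males at 5 mg/kg was -0.97, beside 0.11 over all genes, and in females it was -0.30 beside -0.01.

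**Figure D1:**
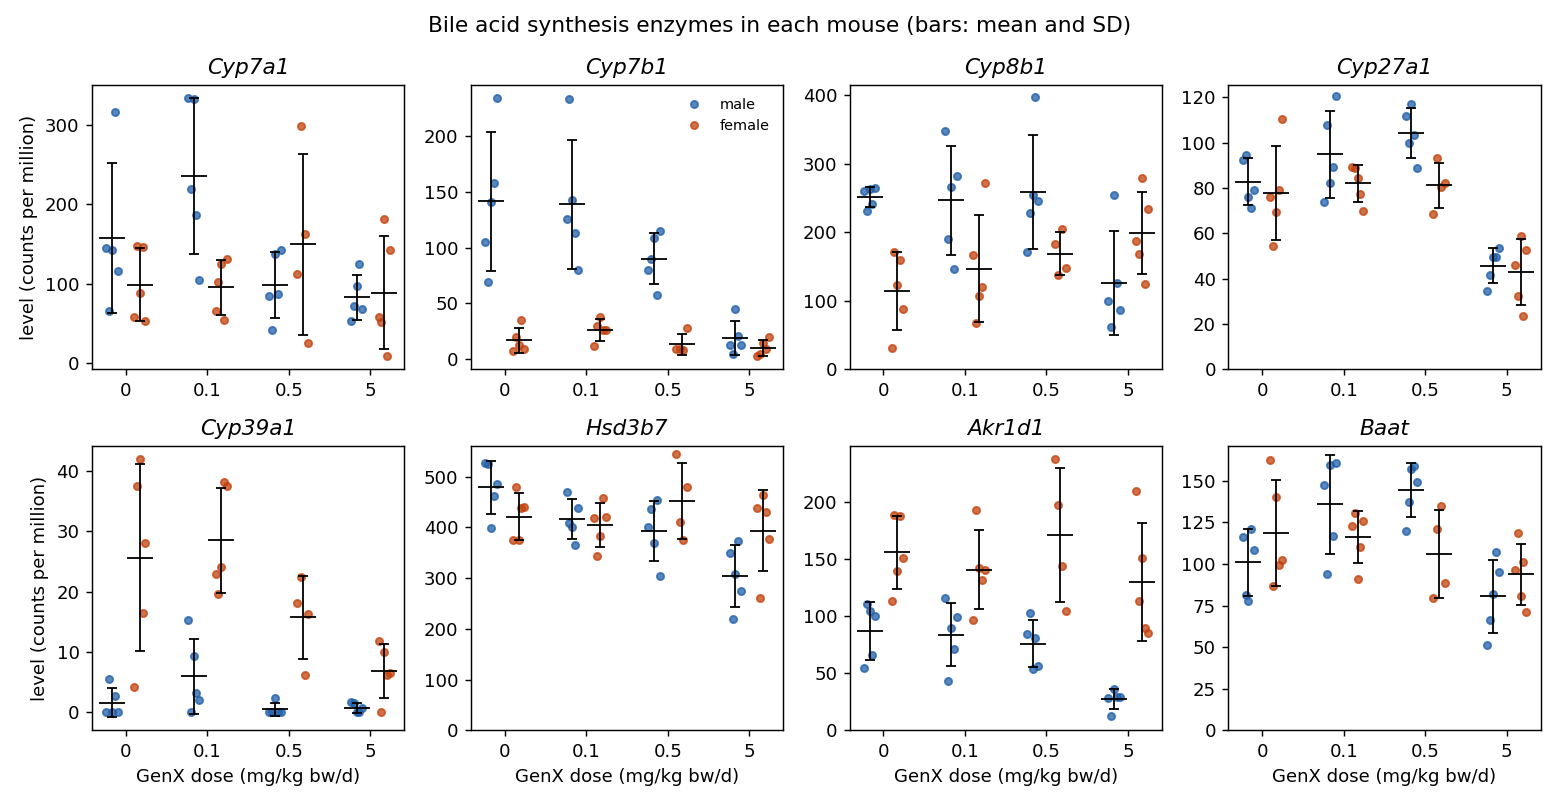
Level (CPM, linear axes from about 0) of each of the 8 enzymes in every mouse against GenX dose (mg/kg bw/d), males in blue and females in orange; horizontal bars are means and whiskers are SD. Males at 5 mg/kg lie below all male controls for Cyp7b1, Cyp27a1, Hsd3b7 and Akr1d1, while Cyp8b1 of male 403 (254.6 CPM) lies within the controls.

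To place the measurements, the sequence before the start of transcription is shown for members whose mRNA fell together in males. RefSeq promoters (GRCm38.p6) were held for 4 of the 8 members. The windows of Cyp8b1, Cyp27a1 and Akr1d1 are printed, each with its 250 bases before the start on the gene's strand, because no annotated exon overlaps them in GENCODE. The window of Hsd3b7 overlaps annotated exons and is not printed, and no entry was held for Cyp7a1, Cyp7b1, Cyp39a1 and Baat. The windows lie at chr9:121916306-121916555 (minus strand), chr1:74713285-74713534 (plus strand) and chr6:37529923-37530172 (plus strand). Capitals mark matches on either strand to the letters searched, which were the nuclear receptor element AGGTCA, the HNF4 element CAAAGTCCA, the Nr5a2 element TCAAGGNCA and the STAT element TTCNNNGAA.
Cyp8b1: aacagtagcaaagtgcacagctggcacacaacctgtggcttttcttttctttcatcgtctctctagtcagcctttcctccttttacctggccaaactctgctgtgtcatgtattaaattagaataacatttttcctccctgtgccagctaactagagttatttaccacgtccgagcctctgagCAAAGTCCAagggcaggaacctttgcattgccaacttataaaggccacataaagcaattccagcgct
Cyp27a1: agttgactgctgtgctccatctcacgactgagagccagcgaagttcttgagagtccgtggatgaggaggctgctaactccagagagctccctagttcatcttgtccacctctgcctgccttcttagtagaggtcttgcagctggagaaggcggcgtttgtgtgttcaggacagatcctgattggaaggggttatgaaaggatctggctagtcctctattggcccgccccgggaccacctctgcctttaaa
Akr1d1: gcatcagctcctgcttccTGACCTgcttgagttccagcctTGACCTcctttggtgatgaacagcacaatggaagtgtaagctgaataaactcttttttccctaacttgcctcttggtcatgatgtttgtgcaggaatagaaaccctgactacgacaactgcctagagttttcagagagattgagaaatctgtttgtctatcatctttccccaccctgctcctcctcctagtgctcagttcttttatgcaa
The Cyp8b1 window holds CAAAGTCCA at -67 from the start, an element present in 0.384% of 32851 promoters of this length. The Akr1d1 window holds TGACCT, the reverse complement of AGGTCA, at -232 and at -210, and 14% of promoters hold AGGTCA on either strand at least once. The Hsd3b7 window holds the STAT element TTCCTGGAA at -21, present in 7.02% of promoters. The Cyp27a1 window holds none of the letters searched. No match to the Nr5a2 element (1.39% of promoters) or to AGGTCA repeated after 1 base (0.0335%) was found in these windows. Such matches are a description of letters, and binding was not measured.

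Cyp7a1, the rate-limiting enzyme of the classic route (chr4:6265612-6275633, minus strand, GRCm38), varied widely among mice of the same group. The 5 male controls had 65.9, 116.4, 143.0, 145.4 and 317.4 CPM, and the 5 males at 5 mg/kg had 52.5, 68.1, 71.8, 97.2 and 124.7 CPM. One treated male was below all controls and the groups otherwise overlapped. The log2 fold change was -0.93 ± 0.47 (SE), with a 95% interval of -1.88 to 0.02 and an adjusted p of 0.238, so that a fall or no change cannot be separated at this spread. In females at 5 mg/kg the levels were 8.12, 52.1, 58.4, 142.9 and 182.0 CPM, beside 53.2 to 147.0 CPM in controls. Their log2 fold change was -0.15 ± 0.47 (adjusted p = 1). Males at 0.1 mg/kg had the highest group mean of the study, 235.9 ± 98.9 CPM (SD, n = 5), beside 157.6 ± 94.9 in controls (adjusted p = 0.953). Cyp7a1 is known to follow the time of day and feeding. Of 12 clock genes that passed the filter, 0 were called in any of the 12 comparisons with edgeR, while an unadjusted p under 0.05 was found at 5 mg/kg for 2 of them among males and for 4 among females. At 5 mg/kg the summed level of the clock genes spanned 57.7 to 168.2 CPM in males and 53.8 to 340.9 CPM in females, beside 42.9 to 115.2 and 61.7 to 98.0 CPM in controls. Hlf and Per2 had no read in the controls of either sex, and Per1 and Per2 had none at 5 mg/kg. At such low counts the absence of calls cannot show that the groups were alike in time of day.

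Cyp8b1 (chr9:121914356-121916305, minus strand), the sterol hydroxylase needed for cholic acid, had the tightest male controls of the set in relative terms. Their levels were 230.3, 241.5, 259.2, 262.4 and 263.7 CPM, and the males at 5 mg/kg had 60.9, 86.1, 99.1, 125.3 and 254.6 CPM. In 4 of the 5 treated males the level was below every control, and male 403 was within the controls. The log2 fold change was -1.01 ± 0.32 (adjusted p = 0.0443). The call was lost without male 401, 402 or 405 (adjusted p = 0.113, 0.163 and 0.135). The second probe of Cyp8b1, with fewer reads, gave -1.12 ± 0.46 with an adjusted p of 0.158. In females the sign was the opposite, with 124.3, 167.9, 187.4, 234.0 and 278.7 CPM at 5 mg/kg and 31.5, 87.9, 123.2, 158.7 and 171.5 CPM in controls. Here 3 of 5 treated females were above every control, the log2 fold change was 0.79 ± 0.32, and the adjusted p was 0.252. The second probe gave 0.34 ± 0.46 in females.

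Cyp27a1 (chr1:74713574-74737892, plus strand), the mitochondrial sterol hydroxylase that opens the alternative route and oxidizes the side chain in both, fell in both sexes at 5 mg/kg. The male controls had 71.1, 76.2, 79.2, 92.5 and 94.7 CPM, and the males at 5 mg/kg had 34.4, 41.6, 49.4, 49.7 and 53.4 CPM. The groups did not overlap, and the log2 fold change was -0.86 ± 0.20 (adjusted p = 0.00275). The female controls had 54.2, 69.2, 75.8, 79.0 and 110.6 CPM, and the females at 5 mg/kg had 23.6, 32.4, 46.0, 52.7 and 58.9 CPM. In 4 of 5 treated females the level was below every control, with a log2 fold change of -0.86 ± 0.20 (adjusted p = 0.00528). The difference between the responses of the sexes was -0.01, with a 95% interval of -0.57 to 0.56. Males at 0.5 mg/kg lay on the other side, at 88.7 to 117.0 CPM, with 4 of 5 above every control (log2 fold change 0.33 ± 0.20, adjusted p = 0.458).

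Cyp7b1 (chr3:18071950-18243338, minus strand), the oxysterol hydroxylase of the alternative route, showed the largest fall among the members. The male controls had 69.0, 104.9, 141.2, 158.2 and 234.6 CPM, and the males at 5 mg/kg had 4.16, 12.4, 12.8, 20.4 and 44.5 CPM. The groups did not overlap, and the level was 7.51-fold lower (log2 fold change -2.91 ± 0.48, adjusted p = 1.44e-05). Males at 0.5 mg/kg had 57.5 to 115.0 CPM, with 1 of 5 below every control (-0.65 ± 0.45, adjusted p = 0.594), and males at 0.1 mg/kg had 79.8 to 233.9 CPM. The female controls had 7.23, 9.17, 12.8, 19.6 and 35.1 CPM, so the range in males at 5 mg/kg overlapped that of untreated females. Females at 5 mg/kg had 2.26, 4.71, 8.92, 14.4 and 19.6 CPM (-0.75 ± 0.46, adjusted p = 0.487). At the estimated 0.726 to 6.78 molecules per library, a further fall in these females is hard to detect.

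Cyp39a1 (chr17:43667425-43751431, plus strand), which hydroxylates an oxysterol made mainly in brain, was low in males at every dose. The male controls had 0, 0, 0, 2.70 and 5.45 CPM and the males at 5 mg/kg had 0, 0, 0.704, 1.54 and 1.76 CPM, at most 1.58 estimated captured molecules per library, at which no change was detectable. The female controls had 4.17, 16.5, 28.05, 37.5 and 41.9 CPM, and the females at 5 mg/kg had 0, 6.14, 6.45, 10.04 and 11.7 CPM. One treated female was below all controls. The log2 fold change in females was -1.90 ± 1.144 (95% interval -4.20 to 0.40, adjusted p = 0.475).

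Hsd3b7 (chr7:127800604-127803802, plus strand), the dehydrogenase that acts on the ring after the first hydroxylation, fell by a small amount with little spread. The male controls had 399.6, 461.8, 485.0, 524.0 and 526.2 CPM, and the males at 5 mg/kg had 219.4, 274.0, 308.4, 348.8 and 372.5 CPM. The groups did not overlap, and the log2 fold change was -0.65 ± 0.15 (adjusted p = 0.00161). In females the levels were 261.6 to 463.2 CPM at 5 mg/kg and 374.2 to 479.6 CPM in controls. The female log2 fold change was -0.10 ± 0.15 with a 95% interval of -0.39 to 0.20.

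Akr1d1 (chr6:37530173-37568815, plus strand), the reductase of the next ring step, had the second largest called fall in males. The male controls had 54.8, 65.6, 100.5, 104.2 and 111.1 CPM, and the males at 5 mg/kg had 12.7, 28.6, 29.2, 29.3 and 36.4 CPM. The groups did not overlap, and the level was 3.20-fold lower (log2 fold change -1.68 ± 0.27, adjusted p = 8.96e-06). The female controls had 113.7, 140.0, 150.7, 187.7 and 188.4 CPM, and the females at 5 mg/kg had 85.6, 89.4, 113.6, 150.8 and 209.5 CPM. Treated and control females overlapped, with 3 of 5 treated females below every control (-0.27 ± 0.26, adjusted p = 0.926).

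Baat (chr4:49489422-49506557, minus strand), which joins bile acids to taurine or glycine, was not called against controls at any dose. The male controls had 77.6, 81.2, 108.4, 116.5 and 120.8 CPM, the males at 0.5 mg/kg had 119.6, 137.1, 149.4, 157.2 and 159.2 CPM, and the males at 5 mg/kg had 51.5, 66.5, 82.1, 94.99 and 107.3 CPM. At 0.5 mg/kg, 4 of 5 males were above every control (0.52 ± 0.20, adjusted p = 0.238), and at 5 mg/kg, 2 of 5 were below (-0.33 ± 0.20, adjusted p = 0.383). Females at 5 mg/kg had 71.3 to 118.8 CPM and female controls had 86.7 to 162.7 CPM (-0.34 ± 0.20, adjusted p = 0.449). The second probe of Baat had group means of 0.371 to 2.46 CPM and could not serve as a check.

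In males at 5 mg/kg, 4 members were wholly below the controls, beside 3.38% of all genes. In females at 5 mg/kg, 0 members were wholly below, beside 1.58% of all genes. There edgeR called 1 member and DESeq2 1. An unadjusted p under 0.05 in edgeR was found for 2, Cyp27a1 (lower) and Cyp8b1 (higher).

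**Figure D2:**
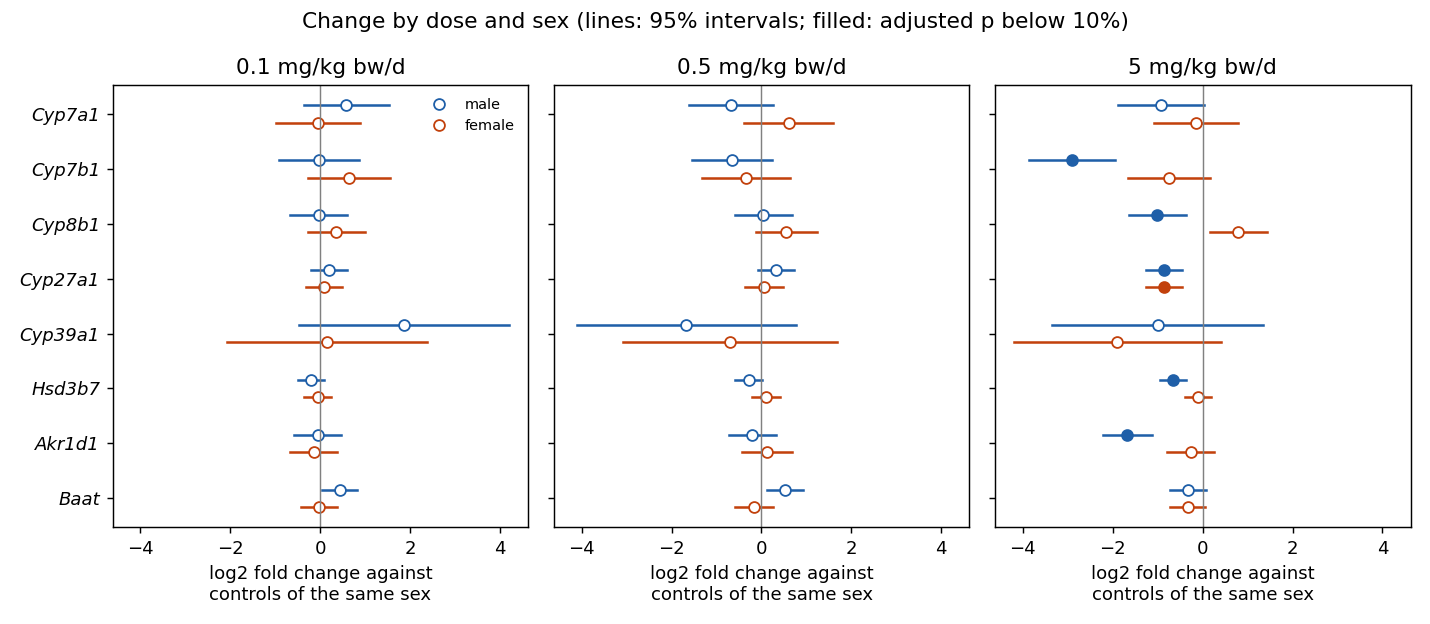
Log2 fold change against controls of the same sex for each enzyme (rows) in 1 panel per dose (mg/kg bw/d), males in blue and females in orange; lines are 95% intervals and filled points have an adjusted p below 10%. Filled points appear only in the 5 mg/kg panel, 5 in males and 1 in females, and the wide intervals of Cyp39a1 go with its low counts.

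At the lower doses no member passed the threshold, although in males at 0.5 mg/kg most mice lay above every control for Cyp27a1 and Baat, as given above. In males at 0.1 mg/kg, 0 of 8 were called with edgeR and 1 (Baat, 0.43 ± 0.20, adjusted p = 0.350) had an unadjusted p under 0.05, while 0.0403% of all genes were called. In males at 0.5 mg/kg, 0 of 8 were called and 1 (Baat) had an unadjusted p under 0.05, while 2.61% of all genes were called. In females, 0 of 8 had an unadjusted p under 0.05 at 0.1 or at 0.5 mg/kg, where 0% and 0.201% of all genes were called. DESeq2 likewise called 0 members in these 4 comparisons.

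The step from 0.5 to 5 mg/kg was tested directly. In males 5 members fell across this step, where 3.01% of all genes were called and 1.84% were called lower. These were Cyp7b1 (-2.26 ± 0.47, adjusted p = 0.00196), Akr1d1 (-1.48 ± 0.27, adjusted p = 0.000261), Cyp27a1 (-1.19 ± 0.20, adjusted p = 8.21e-05), Cyp8b1 (-1.05 ± 0.32, adjusted p = 0.0823) and Baat (-0.84 ± 0.20, adjusted p = 0.0091). All 5 males at 5 mg/kg lay below all 5 males at 0.5 mg/kg for Cyp7b1, Akr1d1, Cyp27a1 and Baat. The share of all genes without overlap was not counted for this step. The Cyp8b1 call was lost in 8 of 10 fits that left out a mouse (males 302, 303, 304, 305, 401, 402, 404 and 405, adjusted p = 0.105 to 0.318). In females, Cyp27a1 fell across the step (-0.92 ± 0.21, adjusted p = 0.0101), where 1.38% of genes were called and 0.749% were called lower. This step shares the 5 mg/kg mice with the comparison against controls and is no independent repeat of it.

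Control females and control males differed in 4 of the 8 enzymes, where 3.89% of all genes were called, 1.52% lower and 2.37% higher in females. Cyp7b1 was 8.45-fold lower in females (log2 fold change -3.08 ± 0.48, adjusted p = 1.88e-05), and Cyp8b1 was 2.19-fold lower (-1.13 ± 0.32, adjusted p = 0.0396), with no overlap between the sexes for either. Akr1d1 was 1.79-fold higher in females (0.84 ± 0.26, adjusted p = 0.0803), also without overlap. The share of all genes without overlap between the control sexes was not counted. Cyp39a1 was higher in females (3.97 ± 1.26, adjusted p = 0.0854), with 4 of 5 females above every male. The Akr1d1 call was lost in 6 of 10 fits that left out a mouse (101, 104, 152, 153, 154 and 155, adjusted p = 0.102 to 0.228), and also with DESeq2's size factors in edgeR (adjusted p = 0.11). The Cyp39a1 call was lost in 8 of 10 (all but 102 and 151, up to 0.183). The Cyp8b1 call was lost without female 151 (0.141) or 155 (0.111). Cyp7a1, Cyp27a1, Hsd3b7 and Baat were not called, with log2 differences of -0.68, -0.09, -0.19 and 0.23.

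The response of females minus that of males was tested at each dose. At 5 mg/kg it was called for Cyp8b1 (1.80 ± 0.45, adjusted p = 0.0411) and Akr1d1 (1.41 ± 0.37, adjusted p = 0.0585), where 1.19% of all genes were called. The Cyp8b1 call was lost without male 402 (adjusted p = 0.104) or female 453 (0.103), and the Akr1d1 call was lost without 102, 103, 105, 151, 153, 402, 451 or 453 (adjusted p = 0.103 to 0.161). For Cyp7b1 the difference was 2.16 ± 0.65 (95% interval 0.86 to 3.46, adjusted p = 0.122), and for Hsd3b7 it was 0.56 ± 0.21 (0.14 to 0.97, adjusted p = 0.187). The Cyp7b1 difference was called without female 154 (adjusted p = 0.0473), male 403 (0.0189), female 451 (0.0557) or female 452 (0.0818). With all 39 libraries neither passed the threshold in edgeR, while DESeq2 called both (Cyp7b1, adjusted p = 0.0892, and Hsd3b7, adjusted p = 0.055), and edgeR with DESeq2's size factors called Cyp7b1 (adjusted p = 0.0956). At 0.1 and 0.5 mg/kg, 0 members were called with edgeR and with DESeq2, with 0 and 1 members at an unadjusted p under 0.05, where 0% and 0.322% of all genes were called.

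The order of the group means sums up the pattern by sex and dose. For Cyp7b1, means ran from 141.6 CPM in male controls, 138.9 in males at 0.1 mg/kg and 90.1 in males at 0.5 mg/kg, whose ranges overlapped, to 25.97 in females at 0.1 mg/kg, 18.9 in males at 5 mg/kg, 16.8 in female controls, 13.2 in females at 0.5 mg/kg and 9.99 in females at 5 mg/kg. For Cyp8b1, males at 0, 0.1 and 0.5 mg/kg had means of 251.4, 246.2 and 258.7 CPM, females had 114.5, 146.3, 168.4 and 198.5 CPM in order of dose, none called against controls, and males at 5 mg/kg had 125.2 CPM, between the female groups. The second probe of Cyp8b1 did not show this steady rise in females. Its female means were 29.18, 29.22, 20.57 and 36.98 CPM in order of dose. For Cyp27a1, the means of the 6 groups under 5 mg/kg were 77.8 to 104.1 CPM with overlapping ranges, and both 5 mg/kg groups were at 45.7 and 42.7 CPM. Over the 8 group means, centred log2 CPM of Cyp7b1 was nearest to Ttc39c, Col27a1 and Mup21 (root mean square difference 0.362, 0.417 and 0.423), that of Cyp8b1 to Letm1, Son and Thap11 (0.182, 0.193 and 0.215) and that of Cyp7a1 to Dirc2, G6pc and Vav2 (0.235, 0.241 and 0.242). No member was among these nearest genes.

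Genes of the later steps moved in both directions. Of 8 tested genes among 9 further synthesis genes, 2 fell and 1 rose in males at 5 mg/kg, and 2 fell and 3 rose in females. Cyp2c70, which makes the muricholic acids of rodents, fell from 837.2 ± 163.8 to 208.3 ± 70.3 CPM in males (SD, n = 5 each; log2 fold change -2.01 ± 0.24, adjusted p = 1.2e-08) and from 1154.9 ± 284.9 to 367.6 ± 142.3 CPM in females (-1.65 ± 0.24, adjusted p = 1.8e-06). Slc27a5, the ligase that activates bile acids ahead of Baat, fell at this dose as well. Its log2 fold change was -0.66 ± 0.15 for males, with an adjusted p of 0.0022, while females had -0.47 ± 0.15, with 0.0919. Hsd17b4, a peroxisomal enzyme shared with fatty acid oxidation, rose in males at 0.5 mg/kg (0.47 ± 0.11) and at 5 mg/kg (0.81 ± 0.11), and in females at 5 mg/kg (0.92 ± 0.11). In females at 5 mg/kg, Acox2, the peroxisomal oxidase of the side chain, rose by 0.90 ± 0.29 (adjusted p = 0.0932) and the thiolase gene Scp2 by 0.39 ± 0.10 (adjusted p = 0.0177), and neither was called in males. The difference between the sexes was called for Scp2 (0.63 ± 0.14, adjusted p = 0.0181) and not for Acox2 (adjusted p = 0.165). Ch25h did not pass the filter.

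Among 12 regulators, 3 fell in males and 2 fell in females at 5 mg/kg, and none rose. Hnf4a, a nuclear receptor of hepatocytes, fell from 358.3 ± 101.4 to 205.9 ± 20.3 CPM in males (-0.80 ± 0.16, adjusted p = 0.000497) and from 327.4 ± 51.9 to 221.4 ± 34.6 CPM in females (-0.56 ± 0.16, adjusted p = 0.0439). Prox1, a repressor of Cyp7a1, and Rxra, the partner of several nuclear receptors, fell in males (-0.58 ± 0.20 with an adjusted p of 0.0711, and -0.35 ± 0.12 with 0.0821). Fgfr4, the receptor for the intestinal signal, fell in females (-1.22 ± 0.31, adjusted p = 0.015), and its value in males was -0.72 ± 0.31 (adjusted p = 0.175). The bile acid receptor gene Nr1h4 was at 0.00 ± 0.17 in males and 0.36 ± 0.17 in females, and Nr0b2 had too much spread for a statement, at -1.18 ± 1.37 and 0.47 ± 1.35.

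Among 9 tested transporters of 10, 3 fell and 1 rose in males at 5 mg/kg, and 2 fell in females. Slc10a1, the sodium-dependent bile acid carrier of the hepatocyte's blood side, fell from 313.5 ± 49.4 to 69.5 ± 16.9 CPM in males (-2.17 ± 0.18, adjusted p = 2.93e-13) and from 290.4 ± 33.6 to 164.8 ± 52.8 CPM in females (-0.82 ± 0.17, adjusted p = 0.00171), and the sexes differed (1.36 ± 0.24, adjusted p = 0.00107). The uptake carriers Slco1a1 (-1.44 ± 0.31) and Slco1b2 (-0.62 ± 0.17) fell in males, and Abcb11, the bile salt export pump, fell in females (-0.77 ± 0.17, adjusted p = 0.00301). Abcc4, an export pump of the blood side, had no read in any of the 5 male controls. It had 1.56 to 14.1 CPM in the 5 males at 5 mg/kg (adjusted p = 0.0101). In males at 0.5 mg/kg it was also called (2.07 to 9.65 CPM, adjusted p = 0.0461). These levels lie near the floor, so the size of the rise is not well fixed (log2 fold change 9.56 ± 2.51 at 5 mg/kg). Males at 5 mg/kg also had more estimated molecules per library than male controls, and whether this bears on the call was not tested. Slc51a did not pass the filter.

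**Figure D3:**
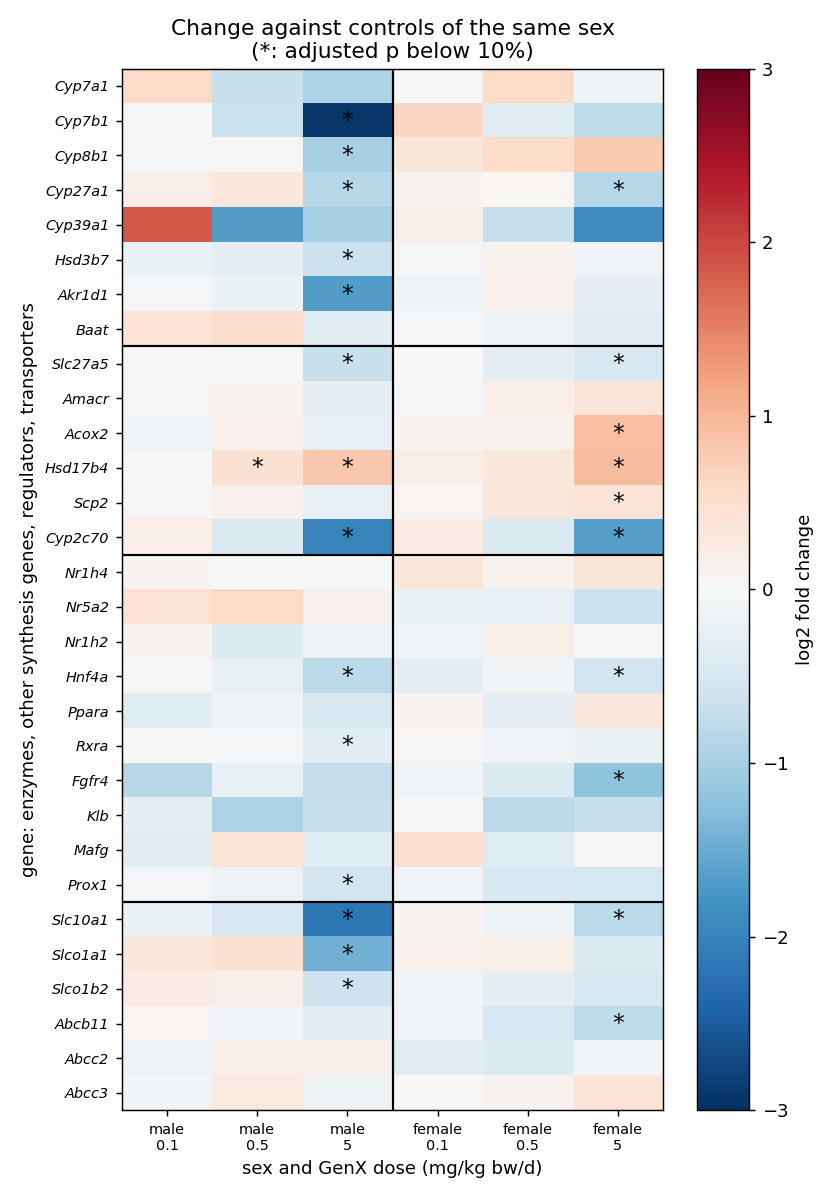
Log2 fold change against controls of the same sex (color, -3 to 3) for 30 genes with a mean of at least 5 CPM (rows: enzymes, other synthesis genes, regulators and transporters, separated by lines) in 6 comparisons (columns: sex and dose in mg/kg bw/d); stars mark an adjusted p below 10%. Stars of the enzymes lie in the 5 mg/kg columns, and Cyp2c70, Slc10a1 and Hnf4a are starred in both sexes there.

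Markers of liver zones and cell types moved at 5 mg/kg as well, and the values below are for this dose unless another is given. In males at 0.5 mg/kg, the periportal gene Gls2 was also called lower (-0.66 ± 0.17, adjusted p = 0.0332). Bile acid synthesis genes are expressed unevenly along the lobule, with Cyp7a1 known as a pericentral gene. Of 7 pericentral genes, 3 fell in males (Cyp2e1, Oat and Slc1a2) and 3 fell in females (Glul, Lect2 and Slc1a2), and of 7 periportal genes, 6 fell in males and 4 in females. The summed pericentral level was 5268.19 to 8153.34 CPM in male controls and 2999.66 to 4475.37 CPM in males at 5 mg/kg, and 6064.29 to 10708.1 and 4612.6 to 10504.3 CPM in females. The summed periportal level was 7149.59 to 11274.3 CPM in male controls and 4184.25 to 5840.71 CPM in males at 5 mg/kg, and 9254.87 to 13903.5 and 6717.61 to 9410.7 CPM in females. Of 5 hepatocyte markers, Apoa1, Hnf4a and Serpina1a fell in both sexes, with sums of 30066.2 to 36959.4 and 17702.6 to 24580.6 CPM in male controls and males at 5 mg/kg, while Alb was at -0.07 ± 0.11 in males and -0.22 ± 0.11 in females and was not called.

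Of 5 stellate cell markers, Col1a1 alone was called in males at 5 mg/kg, higher (1.63 ± 0.53, adjusted p = 0.0546). Lrat (1.65 ± 1.08), Dcn (0.15 ± 0.24), Des (-1.11 ± 0.97) and Reln (-0.70 ± 0.62) were not called. The summed levels were 57.3 to 123.9 CPM in male controls and 121.2 to 142.6 CPM in males at 5 mg/kg. Of 5 markers of sinusoidal endothelium, Clec4g fell in males, with sums of 133.9 to 164.2 and 74.1 to 149.1 CPM. Of 5 Kupffer cell and macrophage markers and 3 tested cholangiocyte markers, 0 were called in either sex at 5 mg/kg with edgeR. There 1 (Spp1) had an unadjusted p under 0.05 in each sex, higher in males (0.75 ± 0.32) and lower in females (-0.65 ± 0.32). The sums of the macrophage and cholangiocyte lists in males at 5 mg/kg were 41.3 to 51.1 CPM and 40.05 to 95.2 CPM, beside 30.6 to 66.8 and 31.9 to 60.7 CPM in controls. The cholangiocyte markers Sox9 and Epcam had no read in males at 0 or 5 mg/kg. Of the intestinal genes, Fgf15, the hormone that restrains bile acid synthesis, had no read in any of the 8 groups, Vil1 was not called, and Fabp2, which hepatocytes also express, rose in males from 263.8 to 309.3 CPM in controls to 588.3 to 866.3 CPM at 5 mg/kg (1.31 ± 0.22, adjusted p = 2.58e-05), and in females (1.17 ± 0.22, adjusted p = 0.000382). Fabp2 was also called higher in males at 0.5 mg/kg (0.98 ± 0.22, adjusted p = 0.00767). The part of these shifts in the values of the enzymes was not tested.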

How the data were processed

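Per the labels and the methods of the study, liver sections were lysed, TempO-Seq libraries were sequenced, and reads were demultiplexed with bcl2fastq 2.17.1.14 and assigned to probes with Bowtie (submitters' processing notes, which name mm10). The authors deposited raw counts of reads per probe, without normalization. As in the study, a library more than 2 SD below the mean total was left out.

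The 17877 probes that passed edgeR's filterByExpr were fitted in R 4.3.3 with edgeR 4.0.16 (TMM, 8 groups, no covariates, quasi-likelihood F-test, two-sided), with Benjamini-Hochberg adjustment over all of them and a threshold of 10%. Scripts were tested on simulated data. Reads carry no molecular identifiers. Molecules were estimated as total reads over the position of the highest peak of the smoothed low counts. The labels number separate mice. Alternatives were DESeq2 1.42.0, its size factors, no filter, all 40 libraries, only the compared groups, summed or other probes, molecules, a 5% threshold, exact permutation tests and leaving out each mouse.

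Every member is named, and a list gene is named where it was called at some dose, except that periportal genes other than Gls2 are only counted. Some list genes that were not called are named too. The nearest genes are the 3 with the least root mean square difference. The further lists were synthesis genes, regulators, transporters, clock genes, pericentral and periportal genes, Y-linked genes and markers of hepatocytes, cholangiocytes, macrophages, stellate cells, endothelium and intestine. The members and lists were chosen with earlier results of these data known. Positions are those of GENCODE vM21.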

Additional observations from a re-analysis of the deposited data

Results flagged for a closer look

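Differences between the sexes in the response to 5 mg/kg, females minus males, were flagged for Cyp8b1 (log2 difference 1.80) and Akr1d1 (1.41), both past the threshold in the direct test. For Cyp8b1 the fitted change was -1.01 in males and 0.79 in females, and for Akr1d1 it was -1.68 and -0.27.

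In 2 of 64 groups examined, 1 mouse lay far from the others of its group. Cyp7b1 was 27.4 CPM in female 354 at 0.5 mg/kg, where the next mouse had 9.12 CPM. Cyp39a1 was 2.42 CPM in male 303 at 0.5 mg/kg, where the next mouse had 0.148 CPM. That highest value stands for an estimated 1.2 captured molecules, and 3 of the 5 mice had no read. Chance flags about 1 in 20 groups.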

How the results depend on the processing

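No called value changed sign under the alternatives run, while 77 values that were not called did. Across 1798 refitted values, 53 calls were lost and 14 were gained. The fall of Cyp7b1 and of Akr1d1 in males at 5 mg/kg was called under all 10 other settings and in all 10 fits that left out a mouse (log2 fold change -3.51 to -2.65 and -1.81 to -1.51 in the latter). Only Cyp8b1 and Baat have another probe. For the other members, Cyp7b1 and Akr1d1 included, the other-probe setting repeats the main fit and is no check. These repeats are among the 1798 values.

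With all 40 libraries, the members called were 2 in males at 5 mg/kg, 0 in females at 5 mg/kg, 0 for the difference between the sexes at 5 mg/kg, 1 between control sexes, and 2 in males and 0 in females for the step from 0.5 to 5 mg/kg. For this and the other alternatives, including the fits that left out a mouse, the share of all genes called was not counted. In females at 5 mg/kg, 0 members were called when only the groups compared were fitted (Cyp27a1, adjusted p = 0.113), and 2 were called without the filter (Cyp8b1 added, higher) and 2 with molecules in place of reads (Cyp39a1 added, lower). Exact permutation tests without adjustment gave 3 members in males at 0.5 mg/kg (Cyp27a1 and Baat higher, Hsd3b7 lower). DESeq2 gave 4 members for the difference between the sexes at 5 mg/kg, with Cyp7b1 and Hsd3b7 added. Cyp7a1 in males at 5 mg/kg was called lower without the filter (-0.93, adjusted p = 0.0421) and with molecules (-1.03, adjusted p = 0.0806). The cause of these changes was not tested.

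Leaving out a mouse gave 0 to 3 members for the difference between the sexes at 5 mg/kg and 1 to 4 between control sexes. With TMM, the median log2 fold change over all probes in males at 5 mg/kg was 0.10, and with DESeq2's size factors it was 0.03. No paired analysis was possible because replicate numbers are animal numbers that no groups share. With 4 or 5 mice a group, intervals were wide for Cyp7a1, Cyp7b1 and Cyp39a1.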
